A study of Mus musculus with 8 samples.

Results

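The enzymes that make and use NAD were followed in mouse neurospheres, balls of cells grown in suspension from neural stem cells and their progeny. The set was chosen by name and comprises 10 genes: Nampt, Nmnat1, Nmnat2, Nmnat3, Nadsyn1 and Nadk for synthesis, Nnt for exchange between NADH and NADPH, and Parp1, Parp2 and Cd38 for consumption. A probe could be matched to 8 of the 10, and 7 were among the 13332 genes tested. No matched probe was found for Nmnat1 or Nnt, which are therefore not analysed here. RNA was read on 8 one-colour Agilent arrays of secondary neurospheres from the hippocampus of mice 7 to 9 weeks old, 2 arrays for each of 4 groups. WT and Sirt1 KO cells came from the 129/ICR background and were cultured for 6 days; replicate 1 of each was female and replicate 2 male. DMSO and resveratrol cells were wild-type C57BL/6 from males, cultured for 5 days and then exposed for 24 hours to the solvent or to resveratrol, at a dose labelled 10 with the unit written "mm". All 4 groups shared the growth medium with EGF, basic FGF and heparin. The labels give no promoter, Cre or exon for the Sirt1 deletion. In WT and Sirt1 KO the 2 arrays of a group differed in sex, so they came from different animals. For DMSO and resveratrol the labels do not say whether the 2 arrays were separate cultures. Part of the spread that p-values rest on may thus be technical.

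Cells keep NAD by recycling nicotinamide: NAMPT joins it to a ribose phosphate to give NMN, and the NMNAT enzymes then attach the adenylyl group. Each sirtuin or PARP reaction cleaves NAD and gives nicotinamide back, so these consumers draw on the same supply as the deacetylase SIRT1. In the adult hippocampus, NAMPT is known for its part in maintaining the neural stem cell pool.

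Array quality differed between replicate numbers. The 75th percentile of the signal lay from 716 up to 871 in replicate 1 (4 arrays) and from 249 up to 377 in replicate 2 (4 arrays), and 53.1% to 72.0% of probes were well above background. WT 1 was on slide 1 together with the replicate 1 arrays of both treatments, Sirt1 KO 1 was on slide 2 together with their replicate 2 arrays, and slide 3, scanned on another day than slides 1 and 2, was left for WT 2 and Sirt1 KO 2. All 10 neural stem and progenitor markers with a probe were well above background on all 8 arrays. Of the 7 microglia and macrophage markers with a probe, Csf1r and Tmem119 were well above background on all 8 arrays, and Aif1, Cx3cr1, Ptprc and Itgam on none. All levels here are log2 signals relative to the 75th percentile of the array, replicate 1 before replicate 2, and a level of 1 probe is set only against the same probe on other arrays. Sirt1 itself was read by 2 probes, and the first gave 0.16 and 0.17 in WT against 0.42 and -0.07 in Sirt1 KO. The second gave -1.34 and -0.99 in WT against -1.01 and -1.92 in Sirt1 KO. The files do not place these probes relative to the deleted part, so they do not check the genotype labels.

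The promoter of Nmnat3 is shown because Nmnat3 had the widest differences between groups among the 7 enzymes, and that of Nampt because it opens the recycling route and stands in contrast. Both windows are the 250 bases before the start of the gene in RefSeq, build GRCm38.p6, plus strand: chr9:98296320-98296569 for Nmnat3 and chr12:32820085-32820334 for Nampt. Capitals mark GGGCGG, the core of the GC box, or its reverse complement CCGCCC.
Nmnat3: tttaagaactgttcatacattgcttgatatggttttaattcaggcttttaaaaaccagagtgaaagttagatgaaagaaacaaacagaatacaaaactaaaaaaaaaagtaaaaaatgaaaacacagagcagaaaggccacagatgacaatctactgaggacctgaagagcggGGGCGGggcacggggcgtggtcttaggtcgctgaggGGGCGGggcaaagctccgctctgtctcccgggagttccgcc
Nampt: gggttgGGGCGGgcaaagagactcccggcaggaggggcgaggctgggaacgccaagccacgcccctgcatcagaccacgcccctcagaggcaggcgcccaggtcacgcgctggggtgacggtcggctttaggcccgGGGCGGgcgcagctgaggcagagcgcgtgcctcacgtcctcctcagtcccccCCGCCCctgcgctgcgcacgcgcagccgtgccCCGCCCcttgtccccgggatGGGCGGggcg
The Nmnat3 window held 2 copies of GGGCGG, 9 CpG and 45.6% G and C, while the Nampt window held 5 copies on both strands, 27 CpG and 75.6% G and C. Among 32851 RefSeq promoter windows of 250 bases, 32.7% held GGGCGG on either strand, the median CpG count was 6 and the median G and C content was 52.4%. CACGTG, the palindromic E-box, was in neither window; 6.02% of all windows held it, among them those of Parp1 and Parp2 and 1 of the 2 windows of Nadk, with 1 copy each. These matches describe the letters of the reference and not of the 129/ICR cells.

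Against WT, none of the 7 enzymes tested passed in Sirt1 KO (limma, adjusted p = 1 for each), and the share called over all genes was 0%. At an unadjusted p under 0.05 the counts were 0 of the 7 enzymes and 158 genes in all, 1.19%. The median log2 difference was -0.0070 over the enzymes and -0.03 over all genes. Against DMSO, none passed with resveratrol either (limma, adjusted p = 1 for each), again with 0% of all genes called. At an unadjusted p under 0.05 these counts were 0 of the 7 enzymes and 203 genes in all, 1.52%. The medians were 0.04 over the enzymes and 0.01 over all genes. The difference between the resveratrol and the Sirt1 KO differences was also tested, and the 7 enzymes lay between -0.29 and 0.48 with adjusted p = 1 in limma; 0% of all genes were called, and 0 of the 7 enzymes and 126 genes in all (0.945%) had an unadjusted p under 0.05. With 2 arrays per group, and with the gaps between replicate numbers left in the spread, these values are imprecise. The standard error of a difference between 2 groups ran from 0.19 for Nadsyn1 to 0.77 for Nmnat2.

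**Figure D1:**
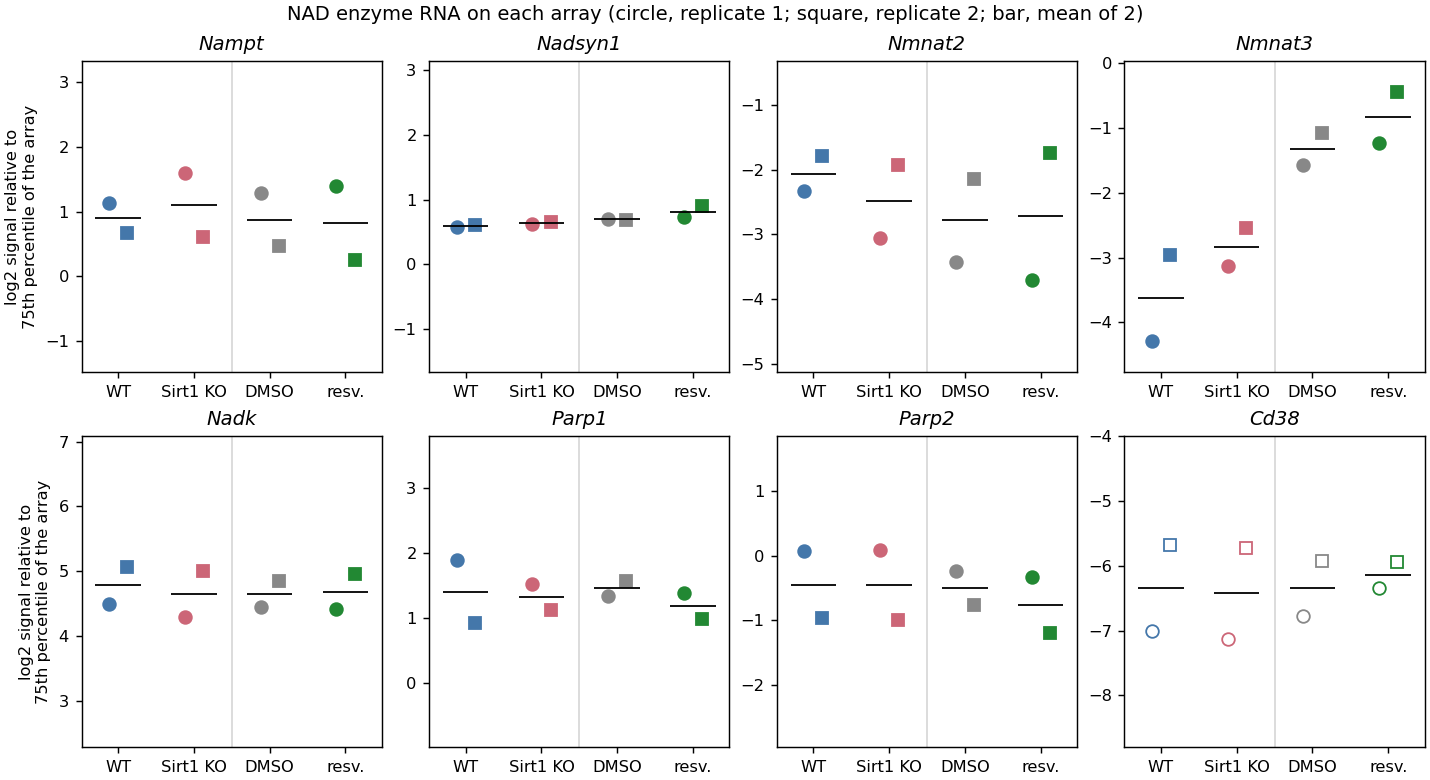
Log2 signal relative to the 75th percentile of the array (vertical axis) of 8 NAD enzymes in the 4 groups, with a circle for replicate 1, a square for replicate 2 and a bar at the mean; every panel spans the same number of log2 units. Nmnat3 lies at -4.29 and -2.95 in WT and at -1.56 and -1.08 in DMSO, Nampt and Parp2 have the circle above the square in all 4 groups, and the open symbols of Cd38 are not well above background.

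Nampt, the rate-limiting enzyme of nicotinamide recycling, was read at 1.14 and 0.67 in WT and at 1.59 and 0.60 in Sirt1 KO. It was read at 1.29 and 0.46 with DMSO and at 1.39 and 0.26 with resveratrol. In each group the replicate 1 array was the higher one, and the groups overlapped in both comparisons. Sirt1 KO minus WT was 0.20 (SE 0.52, 95% interval -1.04 to 1.43), made of 0.46 between the replicate 1 arrays and -0.06 between the replicate 2 arrays. Resveratrol minus DMSO was -0.05 (95% interval -1.29 to 1.18), with 0.10 and -0.21 by replicate number. In this fit without a block, the intervals thus leave room for more than a doubling in either direction for this gene.

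Nampt had 3 probes, and they read the treatment pair and the genotype pair alike: Sirt1 KO minus WT was 0.20, 0.18 and 0.29, and resveratrol minus DMSO was -0.05, -0.10 and 0.01. They parted between the strains, and so between DMSO and WT. Against the first probe, the others read lower in WT and Sirt1 KO than with DMSO and resveratrol. DMSO minus WT was -0.02 for the probe that stands for the gene, 0.73 for the second and 0.66 for the third. The second probe read 0.09 and -0.05 in WT against 1.16 and 0.35 with DMSO, and the third -2.46 and -2.60 against -1.62 and -2.12. For these 2 probes both DMSO arrays were above both WT arrays, while the first probe overlapped, so no direction between DMSO and WT is given for Nampt as a gene. The mean of the 3 probes differed by 0.46.

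**Figure D2:**
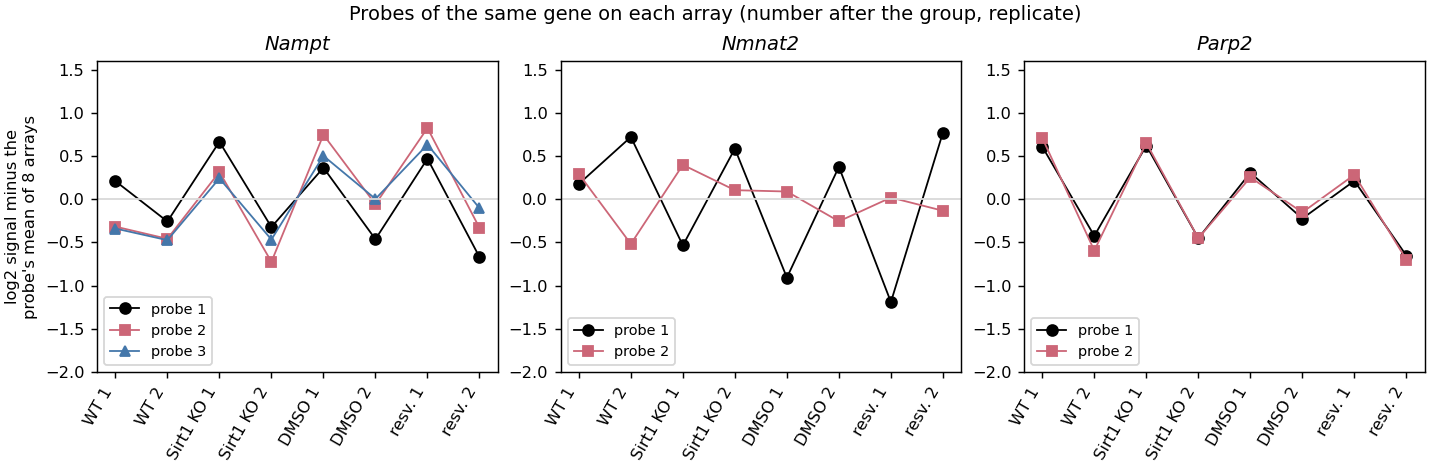
Log2 signal of each probe minus its own mean over the 8 arrays (vertical axis) on each array (horizontal axis; lines only join the points of 1 probe) for Nampt, Nmnat2 and Parp2. The 2 Parp2 probes move together, and the 2 Nmnat2 probes go opposite ways with replicate number in every group. Probes 2 and 3 of Nampt lie below probe 1 on the WT and Sirt1 KO arrays and above it on the DMSO and resveratrol arrays.

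Nadsyn1, NAD synthetase, carries out the amidation that ends the routes from tryptophan and nicotinic acid. It was read at 0.58 and 0.61 in WT, 0.62 and 0.65 in Sirt1 KO, 0.70 and 0.69 with DMSO, and 0.72 and 0.90 with resveratrol. The 4 groups did not overlap on this probe, in the order WT, Sirt1 KO, DMSO and resveratrol, but the neighbouring means lay within 0.12 of each other. Sirt1 KO minus WT was 0.04 (SE 0.19, 95% interval -0.42 to 0.51), and resveratrol minus DMSO was 0.12. On the second Nadsyn1 probe the groups overlapped in the comparisons of Sirt1 KO with WT, resveratrol with DMSO and DMSO with WT. Nadsyn1 was the 1 enzyme of 7 whose groups did not overlap in Sirt1 KO against WT, and the same holds for resveratrol against DMSO. Over all genes, 7.6% lay wholly higher and 7.37% wholly lower in Sirt1 KO than in WT, and 10.2% wholly higher and 8.86% wholly lower with resveratrol than with DMSO.

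Nmnat2 and Nmnat3 attach the adenylyl group to NMN, NMNAT2 on the Golgi and in axons and NMNAT3 with a reported place in mitochondria. Nmnat2 was read at -2.34 and -1.80 in WT, -3.05 and -1.93 in Sirt1 KO, -3.42 and -2.14 with DMSO and -3.71 and -1.74 with resveratrol. In every group replicate 1 was the lower array, and the groups overlapped in each comparison. Sirt1 KO minus WT was -0.42 (SE 0.77) and resveratrol minus DMSO 0.06. A second Nmnat2 probe had replicate 1 as the higher array in all 4 groups and differed by 0.36 and 0.03 in these comparisons, so the sign in Sirt1 KO depends on the probe.

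Nmnat3 had 1 probe, well above background on all 8 arrays. Its processed signals were 42.2 and 32.1 in WT and 99.7 and 54.1 in Sirt1 KO. They were 253 and 178 with DMSO and 307 and 211 with resveratrol. On the scaled log2 axis these are -4.29 and -2.95 in WT, -3.13 and -2.55 in Sirt1 KO, -1.56 and -1.08 with DMSO, and -1.22 and -0.44 with resveratrol. Every C57BL/6 array was above every 129/ICR array, while WT overlapped Sirt1 KO and DMSO overlapped resveratrol. The order of the means was WT, Sirt1 KO, DMSO and resveratrol, and only the step from Sirt1 KO to DMSO had no overlap between neighbours. With normexp background correction from local medians the strains overlapped, since WT 2 at -1.01 lay above DMSO 1 at -1.25. There the Sirt1 KO mean also lay below the WT mean.

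Sirt1 KO minus WT for Nmnat3 was 0.78 (SE 0.53, 95% interval -0.47 to 2.04), 1.16 between the replicate 1 arrays, which lay on different slides, and 0.41 within slide 3. With slide as a block it was 0.45 (limma, adjusted p = 0.537), and with normexp background correction from local medians the difference turned to -0.61. It was 0.12 without WT 1 and 1.45 without WT 2. Resveratrol minus DMSO was 0.49 (95% interval -0.77 to 1.74), with 0.34 within slide 1 and 0.64 within slide 2, and it was 0.098 without resveratrol 2 and 0.88 without resveratrol 1. Neither passed the test. Astrocyte markers differed between Sirt1 KO and WT: 5 of 8 lay wholly higher in Sirt1 KO and 0 wholly lower, beside 7.6% and 7.37% of all genes. Their summed linear signal relative to the 75th percentile, which the brightest genes carry, was 83.8 and 139 in WT against 147 and 252 in Sirt1 KO. The median level of the 8 was 3.03 and 3.56 in WT against 3.39 and 3.48 in Sirt1 KO. Of the mature oligodendrocyte markers tested, 3 of 5 lay wholly higher, with sums of 6.04 and 7.23 in WT against 9.80 and 9.22. Of the mitosis and DNA replication markers, 3 of 13 lay wholly lower, with sums of 192 and 250.4 against 132 and 198. With resveratrol against DMSO, 3 of 8 astrocyte markers lay wholly higher and 0 wholly lower. Of the oligodendrocyte precursor markers, 0 of 6 lay wholly higher and 2 wholly lower there, beside 10.2% and 8.86% of all genes. None of these markers was called. Their part in the Nmnat3 differences was not tested, and in bulk RNA fewer cells of a type and less RNA per cell cannot be told apart.

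**Figure D3:**
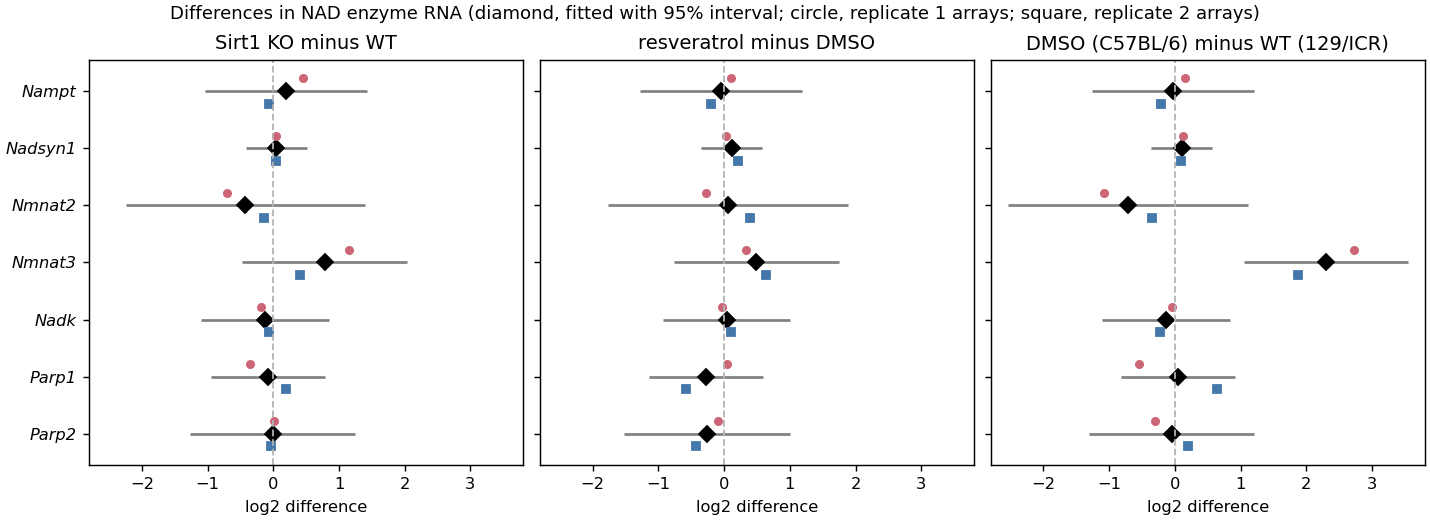
Log2 difference (horizontal axis) of the 7 NAD enzymes tested, in panels for Sirt1 KO minus WT, for resveratrol minus DMSO and for DMSO minus WT, with a diamond and line for the limma estimate and its 95% interval, and a circle and square for the replicate 1 and replicate 2 arrays. The Nmnat3 interval in DMSO minus WT, 1.04 to 3.55, does not cross 0, while every other interval drawn does.

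The widest difference of the set lay between the untreated WT cells of 129/ICR and the DMSO cells of C57BL/6. Strain, solvent and, for replicate 1, sex differ together there, as do slide and scan day for replicate 2, and cannot be told apart. Culture was labelled 6 days in WT and 5 days before the 24 hours of exposure in DMSO. Nmnat3 was 4.92-fold higher in DMSO, a log2 difference of 2.30 (SE 0.53, 95% interval 1.04 to 3.55), with 2.72 within slide 1 and 1.87 between the replicate 2 arrays on slides 2 and 3. It did not pass over all genes (limma, adjusted p = 0.328; unadjusted p = 0.00357), so 0 of the 7 enzymes were called beside 0.075% of all genes, 10 in number. By unadjusted p under 0.05 the counts were 1 enzyme and 747 genes, 5.6%. With slide as a block, the difference was 2.61 (SE 0.25; limma, adjusted p = 0.0133) and passed, beside 1.09% of all genes. Over the scaling, filter and block alternatives the adjusted p ran from 0.00388 to 1, and the difference shrank to 1.23 under normexp with 1 background per array and to 0.26 with local background medians. Both forms of normexp add an offset of 50, which is above the WT processed signals of 42.2 and 32.1. The part of the offset in the smaller differences was not tested. Without WT 2 the Nmnat3 difference on the main scale was 2.97, and without WT 1 it was 1.63.

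Taking all 4 arrays of each strain, Nmnat3 averaged -1.08 ± 0.47 (SD, n = 4) in C57BL/6 and -3.23 ± 0.75 (SD, n = 4) in 129/ICR. The difference was 2.15 (SE 0.37, 95% interval 1.26 to 3.04), or 4.44-fold, with an adjusted p of 0.0609 in limma, beside 0.953% of all genes called. A difference of at least this size, in either direction, was found for 0.96% of the 13332 genes, and 4.81% of genes had every C57BL/6 array above every 129/ICR array. Nmnat3 was not among the latter with normexp from local medians, but was on the main scale. In the authors' deposited table Nmnat3 stood at 5.23 and 6.28 in WT, 6.27 and 6.62 in Sirt1 KO, 7.71 and 8.28 with DMSO, and 8.06 and 8.83 with resveratrol, with the same order of the group means. In that table the median over probes was 6.01 for WT 2 and Sirt1 KO 2 and 6.28 for the other 6 arrays, so levels set across these arrays carry that offset.

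Markers of other cell types also differed between WT and DMSO, where 12.7% of all genes lay wholly higher with DMSO and 13.5% wholly lower. Of the astrocyte markers 4 of 8 lay wholly higher with DMSO and 2 wholly lower, with a summed linear signal of 83.8 and 139 in WT against 204 and 175. The median level of these 8 was 3.03 and 3.56 in WT against 3.13 and 2.91 with DMSO, so the list did not rise as a whole. Of the mature oligodendrocyte markers tested, 4 of 5 lay wholly higher, with sums of 6.04 and 7.23 against 10.0 and 8.27, and Mog was not well above background on any array. Of the oligodendrocyte precursor markers 3 of 6 lay wholly higher, with sums of 172 and 195 against 193 and 218. Of the neuron markers 3 of 6 tested lay wholly lower, with sums of 11.5 and 19.4 against 10.9 and 10.1, and Neurod1 was not well above background on any array. None of these markers was called, and their part in the Nmnat3 difference was not tested.

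**Figure D4:**
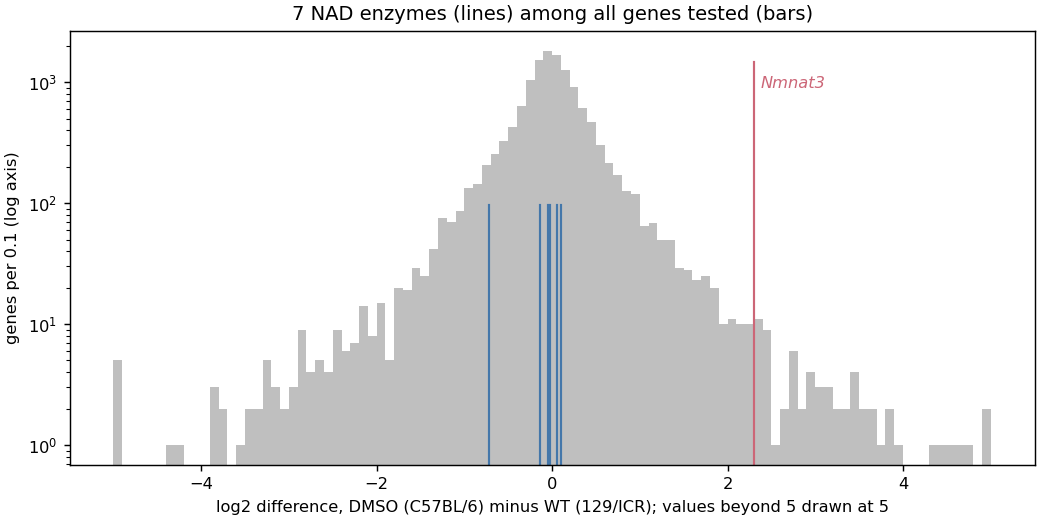
Number of genes (vertical log axis) in each 0.1 step of the log2 difference DMSO minus WT (horizontal axis) over the 13332 genes tested, with vertical lines at the 7 NAD enzymes; the height of a line has no meaning. Nmnat3 stands at 2.30, in the upper tail, and the other 6 lie between -0.72 and 0.10.

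The other enzymes gave smaller differences between these groups. DMSO minus WT was -0.72 for Nmnat2 on its first probe (-1.09 and -0.35 by replicate number) and 0.03 on its second (-0.20 and 0.26). The difference was -0.13 for Nadk, 0.05 for Parp1 and -0.05 for Parp2. For Nadsyn1 it was 0.10, without overlap on its first probe. Thus 2 of the 7 enzymes, Nmnat3 and Nadsyn1, lay wholly higher with DMSO and 0 wholly lower, beside 12.7% and 13.5% of all genes. The median over the 7 was -0.02, as it was over all genes.

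Nadk, the cytosolic kinase that turns NAD into NADP, was read at 4.49 and 5.07 in WT, 4.30 and 5.01 in Sirt1 KO, 4.45 and 4.84 with DMSO, and 4.42 and 4.95 with resveratrol. Replicate 2 was the higher array in each group, and all groups overlapped. Sirt1 KO minus WT was -0.13 (SE 0.41) and resveratrol minus DMSO 0.04, which turned to -0.013 with quantile normalization. The gap between replicate numbers, 0.39 to 0.71 on the main scale, was thus wider than either difference. With quantile normalization the SE of Sirt1 KO minus WT was 0.16, so the spread of Nadk depends on the scaling.

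Parp1 encodes the main DNA damage-activated ADP-ribosyltransferase. It was read at 1.89 and 0.92 in WT, 1.53 and 1.12 in Sirt1 KO, 1.35 and 1.57 with DMSO, and 1.39 and 0.99 with resveratrol. The groups overlapped, and in each comparison the replicate-numbered differences had opposite signs: -0.36 and 0.20 for Sirt1 KO minus WT, 0.05 and -0.58 for resveratrol minus DMSO, and -0.55 and 0.65 for DMSO minus WT. The fitted differences were -0.08, -0.27 and 0.05.

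Parp2 encodes the related enzyme that shares the response to DNA breaks. It was read at 0.07 and -0.96 in WT, 0.08 and -0.99 in Sirt1 KO, -0.23 and -0.76 with DMSO, and -0.33 and -1.19 with resveratrol. Replicate 1 was the higher array in each group, and the groups overlapped. Sirt1 KO minus WT was -0.0070 (SE 0.53) and resveratrol minus DMSO -0.26. Its second probe gave 0.04 and -0.26, so the Sirt1 KO difference near 0 has a sign that depends on the probe.

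Cd38, an ectoenzyme that cleaves NAD and is abundant on immune cells, was not well above background on any array with either of its 2 probes. The processed signals ran from 3.18 to 16.9 over the 8 arrays and both probes. No fold is given, since both groups of every comparison lay below the level that these arrays resolve. This stands beside the microglia and macrophage markers, whose summed linear signal was 0.124 to 0.406 of the 75th percentile.

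Several of these enzymes differed more with replicate number than with genotype or treatment. Nampt was higher in replicate 1 of WT, Sirt1 KO, DMSO and resveratrol by 0.47, 0.99, 0.83 and 1.14, a mean of 0.86 or 1.81-fold. Parp2 was higher in replicate 1 by 1.03, 1.07, 0.53 and 0.87, a mean of 1.83-fold. Nmnat2 on its first probe, Nmnat3 and Nadk were lower in replicate 1 in all 4 groups, with mean gaps of -1.23, -0.79 and -0.55. The second Nmnat2 probe was higher in replicate 1, by 0.81, 0.29, 0.34 and 0.15, so the direction for Nmnat2 depends on the probe. Over all genes, 21.3% were higher in replicate 1 in all 4 groups and 44.2% lower, so a gap in 1 direction throughout was common. Replicate number went with sex, slide and scan day in WT and Sirt1 KO, with slide in DMSO and resveratrol, and with signal strength in all 4 groups; their part in these gaps was not tested.

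The 3 genes whose levels over the 8 arrays were most like those of Nampt were Bmt2 (Pearson r = 0.996), Tbc1d8b (0.991) and Msl1 (0.987), given as a description. Among the other enzymes the same measure over 8 arrays was 0.90 for Parp2, -0.91 for Nadk and -0.86 for the first Nmnat2 probe. For Parp1, Nadsyn1 and Nmnat3 it was 0.52, -0.47 and -0.40. The second Nmnat2 probe went the other way with replicate number than the first. The arrays share their replicate number and its signal strength. The 3 genes, Nampt, Parp2, Nadk, Nmnat3 and the first Nmnat2 probe also move with these.

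The rest of the pathway was followed through 49 further genes, of which 47 had a matched probe and 41 were tested. Tdo2, Kmo, Kynu and Acmsd of synthesis from tryptophan, the nicotinamide riboside kinase gene Nmrk2 and the NAD hydrolase gene Bst1 were too dim to test. Of the 41, 0 rose and 0 fell in limma in each of the genotype, treatment and DMSO minus WT comparisons, and in that order 0, 2 and 2 had an unadjusted p under 0.05. The medians were 0.08, 0.08 and 0.14. The groups did not overlap for 22% of the 41 in Sirt1 KO against WT, 24.4% with resveratrol against DMSO and 39% with DMSO against WT, beside 15%, 19.1% and 26.2% of all genes. This list was chosen with earlier results of these data known, so these shares describe the list and are no test of the pathway.

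**Figure D5:**
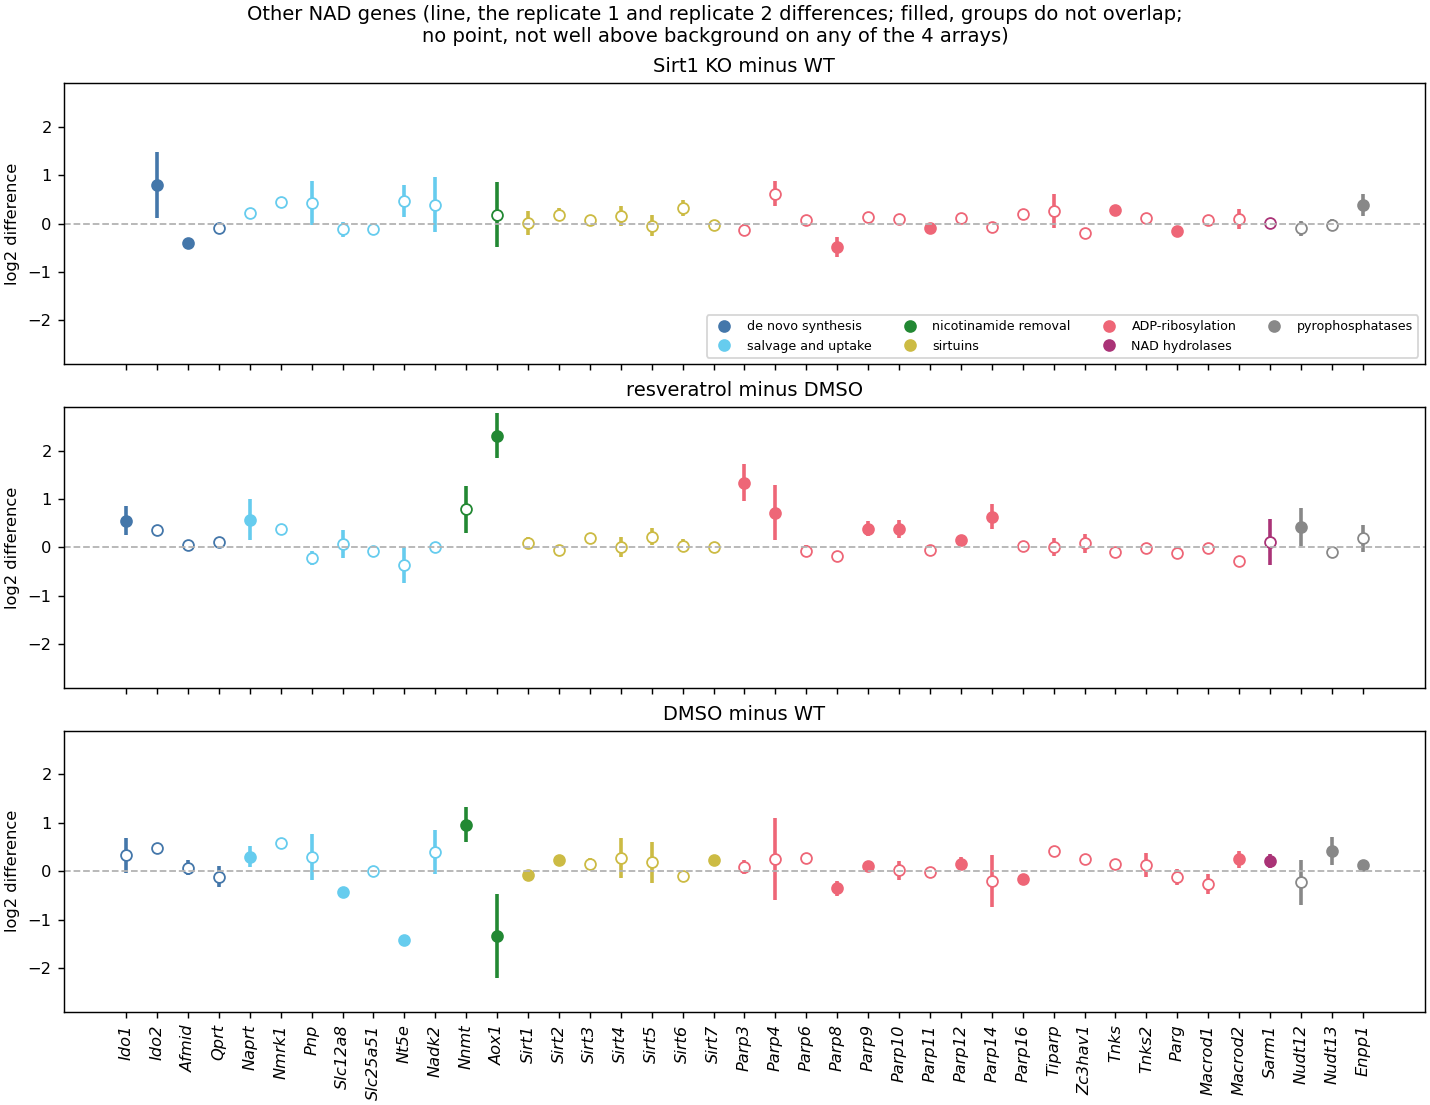
Log2 difference (vertical axis) of 41 other genes of NAD metabolism in panels for Sirt1 KO minus WT, for resveratrol minus DMSO and for DMSO minus WT, coloured by role, with a line between the replicate 1 and replicate 2 differences and a filled point where the groups do not overlap. Aox1 at 2.31 and Parp3 at 1.34 stand highest with resveratrol, and the 7 sirtuins lie between -0.10 and 0.32 throughout.

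In Sirt1 KO against WT, 3 of the 41 lay wholly higher and 6 wholly lower, and 2 of the 6, Ido1 and Nnmt, were not well above background on any of those 4 arrays. Ido2, which opens kynurenine synthesis from tryptophan, differed by 0.79 (SE 0.56), with 1 of the 2 WT arrays well above background. Parp8, an ADP-ribosyltransferase, differed by -0.49 (SE 0.23) and Afmid, the kynurenine formamidase, by -0.39 (SE 0.29). Enpp1, a nucleotide pyrophosphatase of the cell surface, differed by 0.38 (SE 0.34). The 7 sirtuin genes all overlapped, from -0.04 for Sirt5 to 0.32 for Sirt6, and the 7 genes of salvage and uptake overlapped as well.

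With resveratrol against DMSO, 10 of the 41 lay wholly higher and 0 wholly lower, beside 10.2% and 8.86% of all genes. Aox1, the aldehyde oxidase that clears nicotinamide derivatives and many foreign compounds, was read at -0.38 and -0.73 with DMSO and at 1.45 and 2.04 with resveratrol. The difference was 2.31 (SE 0.46), or 4.95-fold (limma, adjusted p = 1; unadjusted p = 0.00169). Parp3, an ADP-ribosyltransferase of DNA break repair, was read at -2.89 and -3.25 with DMSO and at -1.93 and -1.54 with resveratrol. It differed by 1.34 (SE 0.37), or 2.53-fold, with both resveratrol arrays above both DMSO arrays. Under the 2 forms of normexp the Parp3 difference was 0.77 and 0.78. The ADP-ribosylation genes held 6 of the 10, namely Parp3, Parp4 (0.71, SE 0.58), Parp14 (0.63, SE 0.40), Parp9 (0.39), Parp10 (0.38) and Parp12 (0.16), out of 17 tested, whose median was 0.0058. Parp9, Parp10 and Parp12 were picked out after their values were seen, and none of the 6 passed the test. Parp4 differed by 0.28 without resveratrol 2, and Parp14 by 0.26 without DMSO 2.

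Between DMSO and WT, Nt5e, the surface 5'-nucleotidase that can turn NMN into nicotinamide riboside, was read at -0.76 and -1.05 with DMSO against 0.65 and 0.40 in WT. It differed by -1.43 (SE 0.44; limma, adjusted p = 0.55), with -1.41 within slide 1. Aox1 differed by -1.33 (SE 0.46), and its WT arrays, at 0.08 and 1.47, lay far apart: the difference was -2.02 without WT 1 and -0.64 without WT 2. With all 4 arrays of each strain it was -0.27. Slc12a8, described as an NMN transporter, differed by -0.42 (SE 0.40). Nnmt, the methyltransferase that removes nicotinamide, was not well above background on either WT array, and its mean was -4.94 with DMSO and -5.90 in WT. The DMSO mean lay below the lowest level called well above background on the WT arrays, so no fold is given for it.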

How the data were processed

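Scans were read with Agilent Feature Extraction 10.7.3.1, per the file headers. In the authors' deposited scanner files each spot has a processed intensity, background-subtracted by the scanner software and not normalized between arrays. The authors' deposited value table holds log2 values, normalized in a way not given in the sources used here; it served as an alternative. Of 45018 spots, 1639 controls and spots marked as outliers were left out. From the log2 intensity of 41174 probes the array's 75th percentile was subtracted, and 26362 probes were kept that both arrays of some group called well above background. Symbols came from RefSeq accessions; 14256 probes had none. Each gene was represented by its brightest kept probe, by mean over arrays. limma 3.58.1 in R 4.3.3 fitted 4 group means over all 8 arrays with an intensity trend, two-sided, with Benjamini-Hochberg adjustment over 13332 genes at 0.05. The groups of 2 cannot show small differences and miss many larger ones. Scripts were tested on simulated data with independent arrays. There a true log2 change of 1 was called for 2% to 8% of the changed genes, and a change of 2 for 32% to 48%. The files hold no mean signal, so normexp (offset 50) used median signals. Members and lists were chosen with earlier results of these data known. Named were all members with every probe, in each comparison the 4 other NAD genes with the largest difference among those measured whose groups did not overlap, and the 3 genes most like Nampt. Alternatives changed the block, scaling, background, filter, probe rule and arrays used.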

Additional observations from a re-analysis of the deposited data

Results flagged for a closer look

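For 3 enzymes, Sirt1 KO minus WT had opposite signs in the female pair (replicate 1) and the male pair (replicate 2), with 1 pair per sex, so the difference between the sexes was not tested. Nampt differed by 0.46 in the females and -0.065 in the males, 0.52 apart. Parp1 differed by -0.36 in the females and 0.20 in the males, -0.56 apart. Parp2 differed by 0.013 in the females and -0.027 in the males, 0.041 apart. The female pair spanned slides 1 and 2 and the male pair lay within slide 3, so sex and slide cannot be told apart.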

How the results depend on the processing

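No enzyme was called in Sirt1 KO minus WT, resveratrol minus DMSO or the difference between them under any alternative run; leaving out each array in turn also gave 0 to 0 enzymes in these and in DMSO minus WT, and 0 to 0 other NAD genes in the 3 comparisons of 2 groups. A replicate block was fitted although the numbers are not known to pair the samples. Across genes, the deviations of replicate 1 arrays from their group mean correlated at 0.737 (WT with Sirt1 KO), 0.834 (DMSO with resveratrol) and 0.596 (WT with DMSO). With 2 arrays per group the replicate 2 deviations mirror these and add no further value. With the replicate block, 1 enzyme was called in DMSO minus WT (Nmnat3, adjusted p = 0.00388), as was 1 with the slide block (Nmnat3), and 1 other NAD gene each in resveratrol minus DMSO (Aox1, adjusted p = 0.0241) and DMSO minus WT (Nt5e, adjusted p = 0.0146); with all 4 arrays of each strain the block took Nmnat3 from an adjusted p of 0.0609 to 0.000575. It changed no other call of an enzyme or other NAD gene named here. The block took the calls over all genes from 0 to 57 (45 higher, 12 lower) in Sirt1 KO minus WT, to 73 (64 higher, 9 lower) with resveratrol and to 49 (27 higher, 22 lower) in the difference between them. In DMSO minus WT it took 10 (4 higher, 6 lower) to 768 (369 higher, 399 lower); the slide block gave 145 (79 higher, 66 lower), all 4 arrays of each strain 127, only the groups compared 5, probes above background on all 8 arrays 4 and normexp with median signals 4. Without 1 array at a time, all-gene calls were 0 to 4 in DMSO minus WT and 0 to 5 in Sirt1 KO minus WT (5 without Sirt1 KO 1, 3 without Sirt1 KO 2). Differences that turned sign, none of them called, were as follows. In Sirt1 KO minus WT with normexp on median signals, Nmnat3 was -0.61, Nadk 0.28, Parp1 0.082, Ido2 -0.94 and Enpp1 -0.81. With the slide block Parp1 was 0.0094 and Parp2 0.27, and with the mean of probes Parp2 was 0.018. In resveratrol minus DMSO, Nadk was -0.013 with quantile normalization and with the authors' table. In DMSO minus WT, Nampt was 0.094 with the authors' table, 0.11 with normexp on median signals and 0.46 as the mean of probes. There Nadk was 0.10 with the slide block and 0.27 with normexp on median signals, Parp1 -0.25 with the slide block and -0.043 with all 4 arrays, Parp2 0.055 with the authors' table, and Nnmt -1.35 and -0.051 with the 2 forms of normexp. In the difference between differences, Nmnat3 was 0.033 with the slide block, 1.0 with normexp on median signals and 0.032 with 1 background per array. There Nadk was -0.26 with normexp on median signals, and Nadsyn1 was -0.11 and -0.023 with the 2 forms. The cause was not tested. Leaving out 1 array at a time gave these ranges where a sign turned. In Sirt1 KO minus WT they were Nampt -0.30 to 0.69, Nmnat2 -0.98 to 0.14, Nadk -0.48 to 0.23, Parp1 -0.57 to 0.40 and Parp2 -0.54 to 0.53. In resveratrol minus DMSO they were Nampt -0.62 to 0.52, Nmnat2 -0.92 to 1.04, Nadk -0.23 to 0.31 and Parp2 -0.69 to 0.17. In DMSO minus WT they were Nampt -0.44 to 0.39, Nadk -0.43 to 0.16, Parp1 -0.43 to 0.53 and Parp2 -0.57 to 0.47. In the difference between differences they were Nampt -0.82 to 0.32, Nmnat2 -0.50 to 1.46, Nmnat3 -0.96 to 0.37, Nadk -0.19 to 0.52, Nadsyn1 -0.013 to 0.16, Parp1 -0.67 to 0.30 and Parp2 -0.79 to 0.28. Without a change of sign, such ranges were Ido2 0.40 to 1.19, Enpp1 0.16 to 0.60 and Parp8 -0.69 to -0.29 in Sirt1 KO minus WT, and Slc12a8 -0.58 to -0.26 in DMSO minus WT. With normexp on median signals Afmid was -0.96, Parp8 -0.20 and Slc12a8 -1.15. Ido2, Parp3 and Nnmt had no value where probes had to be above background on all 8 arrays, and the difference between differences has no fit on only the groups compared. The precision is limited by 2 arrays per group and by the gaps between replicate numbers, which the main fit leaves in the spread. With the replicate block, the SE of Sirt1 KO minus WT went from 0.52 to 0.16 for Nampt. It went from 0.77 to 0.25 for Nmnat2 and from 0.41 to 0.10 for Nadk. For dim probes such as Nmnat3 in WT, the small signal over background limits the precision as well.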
